A study of Mus musculus with 24 samples.

Results

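Phlda3 and 8 further genes of the p53 pathway were followed in kidney RNA of mice after myocardial infarction (MI). The others were Cdkn1a, Mdm2, Ccng1, Trp53inp1, Bax, Aen, Sesn1 and Trp53, the gene of p53 itself. These 9 genes were taken by symbol from the 56941 genes of the count table, and all 9 were among the 12780 genes with enough counts to be tested. They were selected on membership of the pathway with the differences between groups in these same kidneys already known, and Phlda3 was singled out among them, so that its difference between groups is given as a description without a test.

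The p53 protein is a transcription factor that is held at a low level in unstressed cells, mainly because Mdm2, itself a p53 target, marks it for degradation. DNA damage, hypoxia and other stress release p53 from this control, and its target genes then stop the cell cycle, repair DNA, adjust metabolism or start cell death. In the kidney the pathway is best known from tubular cells after ischemia or toxic injury, where Cdkn1a is a common readout. Phlda3 is a p53 target whose small protein binds membrane phosphoinositides and thereby competes with the kinase AKT, so it restrains survival and growth signalling.

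RNA was measured by MACE, in which each polyadenylated transcript is represented by a tag close to its 3′ end and PCR copies are removed by unique molecular identifiers. All animals were male C57BL/6 J wild-type mice aged 8 to 11 weeks at surgery. In the mice with MI the left anterior descending coronary artery (LAD) was tied off permanently, and tissue was collected at 5d or 28d post-MI, while sham mice went through the operation without ligation and were collected at 5d. Counts of 22 kidneys were used (8 sham, 8 taken 5d and 6 taken 28d after MI), and the same sham kidneys served both times. At 28d, MI therefore cannot be told apart from the later collection and the higher age of the mice.

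Total counts per kidney ranged from 2280618 to 3786275. Values are given as CPM, the count scaled to the library size of its kidney after TMM normalization, not to the plain total. The kidney label was borne out by its markers, with summed CPM of at least 3956 for proximal tubule genes and at least 1099 for thick ascending limb genes in every kidney. Of the 4 proximal tubule genes, Slc34a1 made up most of the sum, and Slc5a2 had only 19 counts over all 22 kidneys. Tubular injury markers (Havcr1, Lcn2, Krt20) summed to at most 8.73 CPM in any kidney and did not reach the count filter. Among 3 kidneys, sham replicates 2 and 6 and replicate 5 at 5d post-MI, adrenal cortex markers summed to 724, 545 and 65.8 CPM, against at most 4.0 CPM in the others. As these are whole-tissue samples, fewer cells of a type and less RNA per cell cannot be told apart in any value below.

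The p53 protein binds DNA through pairs of 10-base half-sites, and the promoter windows of the 9 genes were searched for them to show which start regions carry this sequence. The RefSeq table (build GRCm38.p6) held windows of 300 bases, 250 before and 50 from the transcription start on, for 8 of the 9 genes. The p53 half-site consensus reads the same on both strands, so that a single search covers both. An exact half-site was found in 7 of the 8 genes and in 8 of their 11 windows, against 8.36% of all 32851 windows of the table. The 2 windows of Aen overlap and hold the same half-site, so that it counts in both. Cdkn1a and Ccng1 are shown as examples of paired half-sites and Phlda3 because no exact half-site occurs in its window. A further window of Cdkn1a and 1 of the windows of Sesn1 held none either. The last 8 bases of the Phlda3 window match the first 8 positions of the consensus, and the window's end cuts off the rest. In the Cdkn1a window, 2 exact half-sites stood 12 bases apart, 73 and 51 bases before the start of this window's transcript, and 0.0731% of all windows held a pair of exact half-sites within 13 bases. The half-site nearer the start is followed directly by 10 bases with 1 mismatch to the consensus, which are left in small letters below. The Ccng1 window (minus strand) held an adjacent pair with 1 mismatch in all, as did that of Bax with 1 base between, and 1.09% of the windows held a pair at least as close to the consensus. The windows lie at chr17:29090729-29091028 (plus strand) for Cdkn1a, chr11:40755237-40755536 for Ccng1 and chr1:135765835-135766134 (plus strand) for Phlda3, and capitals mark the half-sites.
Cdkn1a: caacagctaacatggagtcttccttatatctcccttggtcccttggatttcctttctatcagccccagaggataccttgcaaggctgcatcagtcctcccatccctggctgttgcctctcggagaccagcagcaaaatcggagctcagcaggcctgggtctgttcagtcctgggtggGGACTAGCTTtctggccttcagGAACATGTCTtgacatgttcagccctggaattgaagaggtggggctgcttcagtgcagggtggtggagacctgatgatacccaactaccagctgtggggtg
Ccng1: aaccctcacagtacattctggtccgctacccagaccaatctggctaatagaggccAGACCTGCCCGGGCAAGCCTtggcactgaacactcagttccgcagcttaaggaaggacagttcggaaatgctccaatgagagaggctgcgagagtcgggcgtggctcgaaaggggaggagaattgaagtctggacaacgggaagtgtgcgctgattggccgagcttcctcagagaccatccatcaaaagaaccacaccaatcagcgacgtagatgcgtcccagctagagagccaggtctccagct
Phlda3: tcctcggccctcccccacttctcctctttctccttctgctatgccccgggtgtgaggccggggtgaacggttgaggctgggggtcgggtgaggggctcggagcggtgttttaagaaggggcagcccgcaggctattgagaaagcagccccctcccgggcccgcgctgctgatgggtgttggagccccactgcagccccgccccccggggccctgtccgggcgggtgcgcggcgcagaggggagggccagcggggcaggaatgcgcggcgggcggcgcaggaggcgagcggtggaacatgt
A match is a description of these letters alone, and the lack of one in this window says nothing about sites elsewhere in the gene.

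Phlda3, annotated on chromosome 1 at 135766119 to 135769136 (plus strand, GRCm38), had fewer counts after MI at both times. In sham kidneys it ranged from 13.9 to 38.9 CPM with a median of 25.9. At 5d post-MI it ranged from 8.23 to 23.3 CPM with a median of 18.8, and at 28d from 11.7 to 17.1 CPM with a median of 15.2. All 8 kidneys at 5d and all 6 kidneys at 28d lay below the sham mean of 26.3 ± 7.29 CPM (SD, n = 8), but the groups overlapped, and sham replicate 8 had only 13.9 CPM. The log2 fold change was −0.62 (SE 0.20) at 5d, which is 0.649 of the sham level, and −0.83 (SE 0.23) at 28d, or 0.561 of the sham level. Between 28d and 5d the log2 fold change was −0.21 (SE 0.24), so that the order of the groups was sham, 5d, 28d, with the last pair closer than their standard error. Without sham replicate 8 the values were −0.73 (SE 0.17) and −0.94 (SE 0.20), and without the 3 kidneys that carried adrenal cortex markers they were −0.70 (SE 0.24) and −0.84 (SE 0.25).

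**Figure D1:**
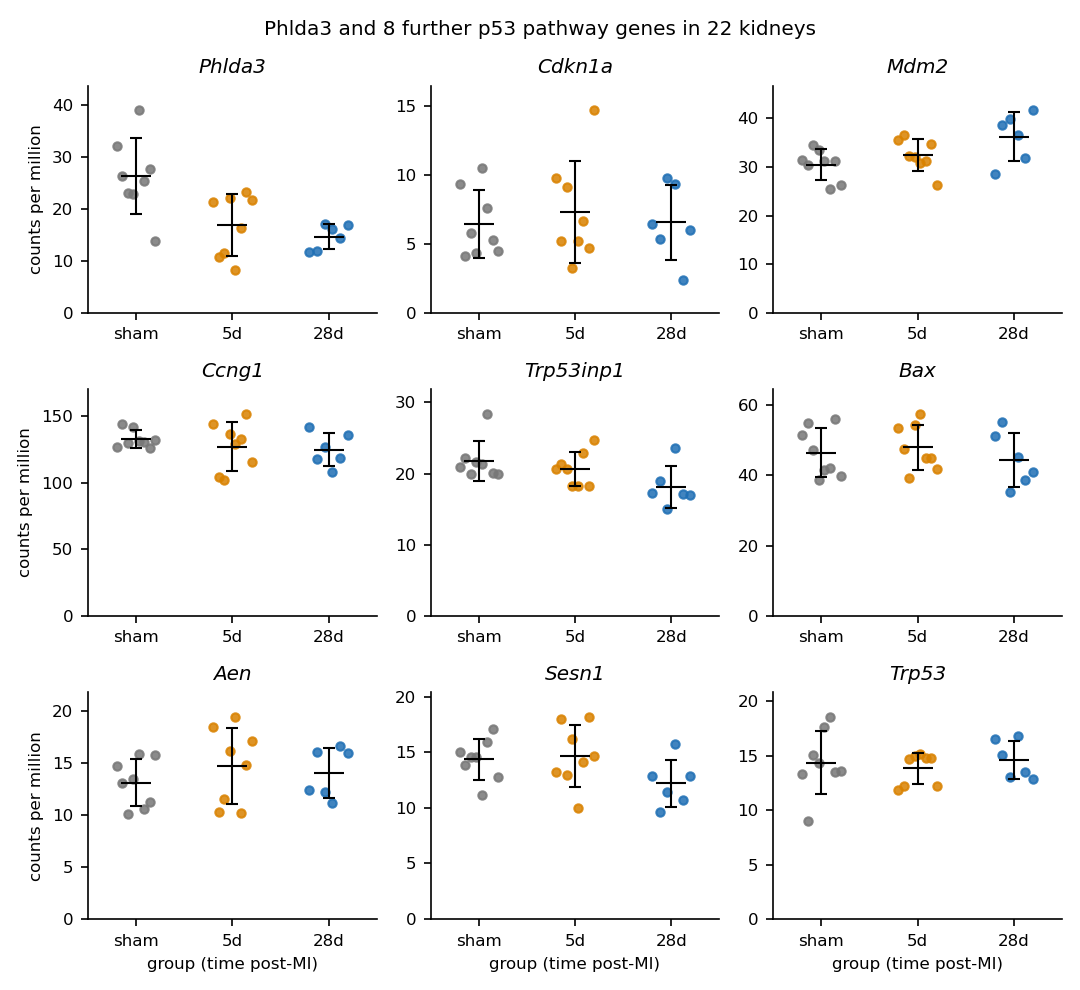
CPM (y axis, linear from 0) of the 9 genes in each kidney, with a point per kidney in the sham, 5d post-MI and 28d post-MI groups, and bars for the mean ± SD. Phlda3 runs from 13.9 to 38.9 CPM in sham kidneys, up to 23.3 CPM at 5d and up to 17.1 CPM at 28d, and the groups overlap for all 9 genes.

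The other 8 genes showed no difference that passed the test. At 5d post-MI 0 of 8 were called by edgeR at an adjusted p under 0.05, where 0.0704% of all tested genes were called, and 0 of 8 by DESeq2 (0.241% of all genes) or by limma voom (0.0391%). The groups stood fully apart in 0 of 8, against 0.0548% of all genes. At an unadjusted p under 0.05 there were likewise 0 of 8, against 7.9% of all tested genes. At 28d against sham edgeR called 0 of 8, with 0.0235% of all genes called, and 2 of 8 had an unadjusted p under 0.05, against 8.68% of all genes. DESeq2 gave an adjusted p to 1 of the 9 genes in that contrast, Ccng1, and did not call it, while it called 1.44% of the genes to which it gave one, and voom called 0 of 8 and 0.0391% of all genes. Between 28d and 5d edgeR called 0 of 8, with 0.415% of all genes called, as did DESeq2 (0.565%) and voom (0.391%), and 0 of 8 had an unadjusted p under 0.05, against 9.05% of all genes. Their median log2 fold change was 0.04 at 5d, −0.02 at 28d and −0.08 between the times, and the medians of all tested genes were 0.0002, −0.0012 and −0.0046.

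Trp53 (chromosome 11, 69580359 to 69591873, plus strand, as all positions here in GRCm38) stood at nearly the same level in all groups. Sham kidneys ranged from 9.02 to 18.6 CPM with a median of 13.9, those at 5d from 11.9 to 15.2 CPM with a median of 14.7, and those at 28d from 12.9 to 16.8 CPM with a median of 14.3. The log2 fold change was −0.05 (SE 0.12) at 5d and 0.03 (SE 0.13) at 28d, with edgeR adjusted p of 0.953 and 0.984. Since p53 is regulated mostly as a protein, its mRNA level is no measure of its activity.

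Mdm2 (chromosome 10, 117688875 to 117710758, minus strand), the ubiquitin ligase that degrades p53, had the highest values at 28d. It ranged from 25.4 to 34.5 CPM (median 31.2) in sham kidneys, from 26.3 to 36.6 CPM (median 32.1) at 5d and from 28.6 to 41.7 CPM (median 37.7) at 28d. Of the 6 kidneys at 28d, 4 lay above all sham kidneys and 1 lay below the sham mean. The log2 fold change at 28d was 0.25 (SE 0.09), with an adjusted p of 0.399 by edgeR's quasi-likelihood test, and it stayed between 0.20 and 0.31 whichever kidney was left out. At 5d it was 0.09 (SE 0.09), with an adjusted p of 0.872.

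Cdkn1a (chromosome 17, 29090976 to 29100727, plus strand), whose protein blocks cyclin-dependent kinases, varied more among kidneys of a group than between groups. It ranged from 4.13 to 10.5 CPM in sham kidneys (median 5.49), from 3.23 to 14.7 CPM at 5d (median 5.91) and from 2.38 to 9.76 CPM at 28d (median 6.20). Its count was only 6 to 48 per kidney. The log2 fold change was 0.21 (SE 0.29) at 5d and 0.03 (SE 0.32) at 28d, with adjusted p of 0.921 and 0.992 in edgeR. Its SD was 38.2% of the mean in sham kidneys, 50.8% at 5d and 41.7% at 28d. With this spread and these counts, a small change in Cdkn1a was not detectable.

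Ccng1 (chromosome 11, 40748552 to 40755311, minus strand), a cyclin which recruits a phosphatase to Mdm2, had an SD of 5.01% of the mean in sham kidneys, 14.4% at 5d and 10.1% at 28d. It ranged from 125.8 to 143.9 CPM in sham kidneys, from 101.9 to 151.9 CPM at 5d and from 108.1 to 142.03 CPM at 28d. The log2 fold change was −0.07 (SE 0.07) at 5d and −0.09 (SE 0.07) at 28d, with edgeR adjusted p of 0.876 and 0.808.

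The genes of cell death also overlapped between groups. Bax (chromosome 7, 45461697 to 45466898, minus strand), which permeabilizes the outer mitochondrial membrane, ranged from 38.6 to 56.0 CPM in sham kidneys, from 39.2 to 57.6 CPM at 5d and from 35.4 to 55.1 CPM at 28d. Aen (chromosome 7, 78895854 to 78911209, plus strand), an exonuclease that digests DNA during apoptosis, ranged from 10.2 to 15.9 CPM in sham kidneys, from 10.2 to 19.5 CPM at 5d and from 11.2 to 16.7 CPM at 28d. The log2 fold changes were 0.04 (SE 0.09) and −0.06 (SE 0.10) for Bax and 0.14 (SE 0.14) and 0.09 (SE 0.15) for Aen, at 5d and 28d in this order, none of them called.

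Trp53inp1 (chromosome 4, 11156431 to 11174379, plus strand), which takes part in p53-dependent death and in autophagy, and Sesn1 (chromosome 10, 41809935 to 41908424, plus strand), a sestrin that restrains mTORC1 signalling, were lowest at 28d without passing the test. Trp53inp1 ranged from 19.9 to 28.4 CPM (median 21.2) in sham kidneys, from 18.2 to 24.7 CPM (median 20.6) at 5d and from 15.04 to 23.6 CPM (median 17.2) at 28d, where 5 of 6 kidneys lay below all sham kidneys. Its log2 fold change at 28d was −0.26 (SE 0.11), with an adjusted p of 0.514 in edgeR. Sesn1 ranged from 11.2 to 17.1 CPM (median 14.6) in sham kidneys, from 9.96 to 18.2 CPM (median 14.4) at 5d and from 9.67 to 15.7 CPM (median 12.1) at 28d. Its log2 fold change at 28d was −0.24 (SE 0.14) against sham, with an adjusted p of 0.663 in edgeR, and 5 of 6 kidneys lay below the sham mean.

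**Figure D2:**
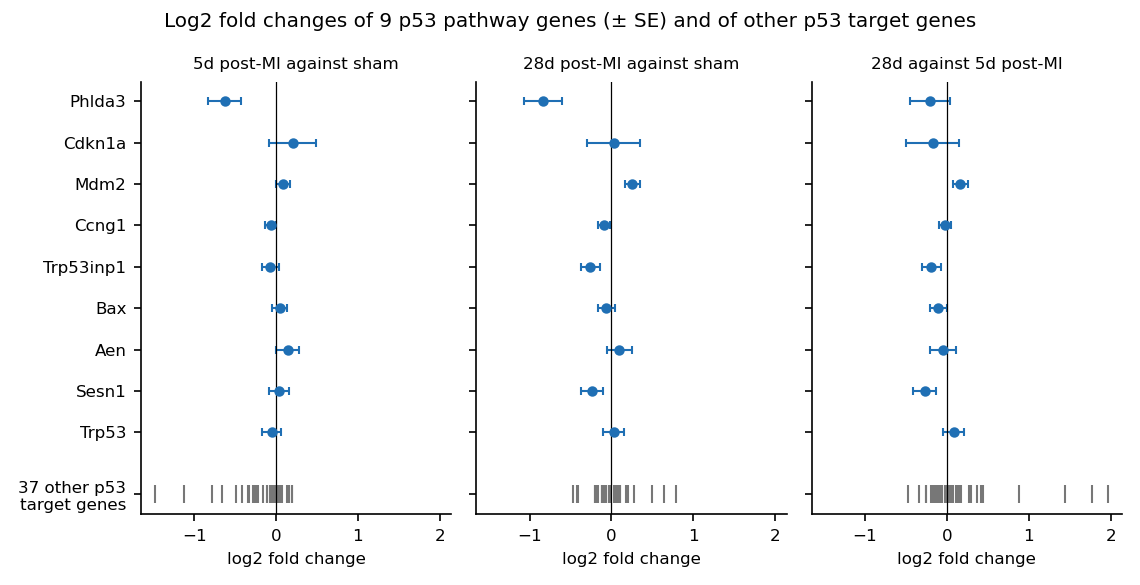
Log2 fold change (x axis) of each of the 9 genes with its SE in 3 contrasts, and of 37 other p53 target genes as ticks in the bottom row. Phlda3 lies at −0.62 and −0.83 against sham, and the other 8 genes lie between −0.26 and 0.25 there and between −0.27 and 0.17 in the contrast of the times. The contrasts against sham share the same sham kidneys.

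The differences among kidneys of the same group were then used to ask whether Phlda3 varied together with the other p53 targets, since these differences are not used by any contrast between groups. The log2 CPM of each gene was taken as its deviation from the group mean over 22 kidneys. Across the 8 relations, Pearson's r with Phlda3 lay between −0.07 for Bax and 0.33 for Sesn1, and none had an adjusted permutation p below 0.618. For Cdkn1a, r was 0.32 (permutation p = 0.176, adjusted 0.618) and Spearman's rho was 0.32 (permutation p = 0.164, adjusted 0.760). Without the 2 kidneys farthest from the median of Phlda3, the values of r over the 8 genes ran from −0.14 to 0.58, the highest being that of Aen. The 9 genes were also little correlated among themselves, as their 36 pairs had a median r of −0.02, from −0.55 (Aen and Sesn1) to 0.41, with 16 pairs above 0.

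The genes whose pattern among kidneys was most like that of Phlda3 were no p53 targets of the lists used here. Of 9306 genes with a mean of 10 CPM or more, the 5 with the highest within-group r over the 22 kidneys were Fasn (0.92), Agpat2 (0.91), Scd1 (0.90), Thrsp (0.89) and Acaca (0.88). Fasn is the fatty acid synthase, Acaca the acetyl-CoA carboxylase that feeds it, Scd1 a desaturase, Agpat2 an acyltransferase of triglyceride assembly and Thrsp a regulator of lipogenesis. The median r of all genes compared was −0.01 and their 90th percentile 0.31, and the best placed of the 9 p53 pathway genes, Sesn1, ranked 764. Cdkn1a was below the limit of 10 CPM and was not ranked. These 5 genes were picked as the highest of many, so that their r is a description, and it was lower within the 6 kidneys at 28d, from 0.09 for Scd1 to 0.60 for Agpat2, than in sham kidneys, where it was between 0.94 and 0.97.

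Fasn itself ranged from 148 to 1042 CPM in sham kidneys (median 493.2), from 71.5 to 472 CPM at 5d (median 253) and from 135 to 285 CPM at 28d (median 178). Its log2 fold change was −1.11 (SE 0.42) at 5d and −1.44 (SE 0.47) at 28d, with edgeR adjusted p of 0.503 and 0.361. The sham kidney with the lowest Fasn was, at 148 CPM, well below the sham median, and the groups overlapped.

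As such genes are strongly used by fat cells, the markers of fat were compared with Phlda3 in a step added after these values had been seen. The white adipocyte markers Adipoq, Plin1, Cidec and Lep summed to between 49.4 and 216 CPM in sham kidneys (median 127), between 16.9 and 162 CPM at 5d (median 105) and between 35.4 and 122 CPM at 28d (median 62.9). Of these 4 markers 3 passed the count filter and 0 were called in any contrast, while Lep was at 0 counts in 1 sham kidney and in 1 kidney at 5d. The brown adipocyte markers Ucp1 and Cox8b summed to between 11.4 and 250.3 CPM in sham kidneys, between 1.73 and 192 CPM at 5d and between 8.05 and 55.3 CPM at 28d. Sham replicate 8, which had the lowest Phlda3 of its group, also had the lowest white adipocyte sum there, 49.4 CPM, and replicate 6 at 5d had both the lowest Phlda3 of all kidneys, 8.23 CPM, and the lowest sum, 16.9 CPM.

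Since the step was prompted by the correlations above in the same kidneys, the relation is given as a description without a p-value. Within groups, Pearson's r of Phlda3 with the white adipocyte markers was 0.83 and Spearman's rho 0.77. Without the 2 kidneys named above r was 0.71, and it was 0.91 in sham kidneys, 0.91 at 5d and 0.29 at 28d. With the brown adipocyte markers r was 0.82 and rho 0.71, and r was 0.67 without those 2 kidneys. Over 126 relations between the 9 genes and 14 marker lists, r in the other 124 lay between −0.49 and 0.52. For Cdkn1a, r with the white adipocyte markers was 0.31, and for Ccng1 it was 0.44.

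**Figure D3:**
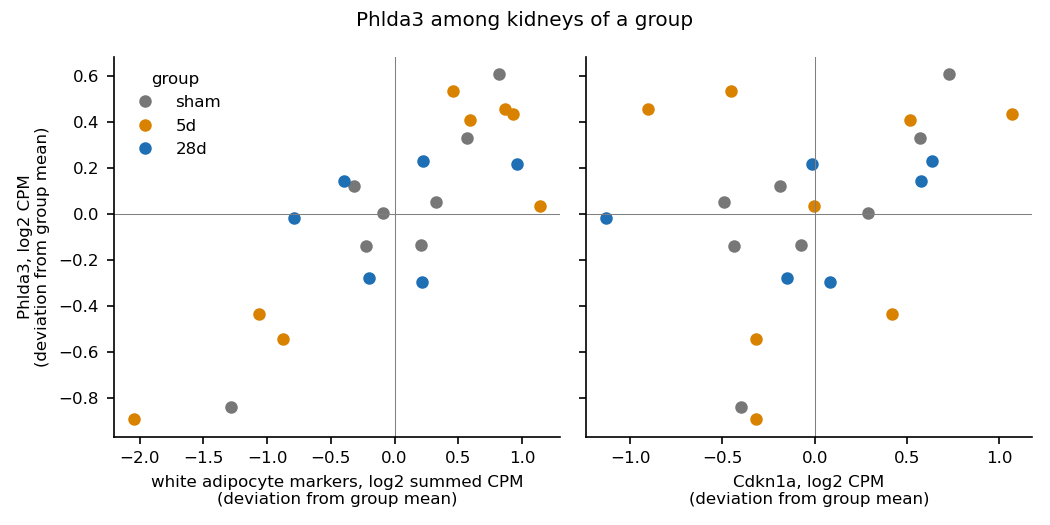
Phlda3 (y axis) against the summed white adipocyte markers (left) and against Cdkn1a (right), all as log2 deviations from the group mean, with a point per kidney coloured by group. The left panel rises from the kidneys low in fat markers to those high in them (r = 0.83 over 22 kidneys), whereas the right panel is scattered (r = 0.32).

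In a fit with the log2 sum of the white adipocyte markers as a covariate, also chosen after the values had been seen, the log2 fold change of Phlda3 was −0.37 (SE 0.12) at 5d and −0.40 (SE 0.15) at 28d, against −0.62 and −0.83 without it. The sign was thus kept while the size was smaller at both times. In the same fit Fasn had log2 fold changes of −0.56 (SE 0.25) and −0.44 (SE 0.29). Whether fat tissue attached to the kidneys has a part in the Phlda3 values was not tested, and adipocyte content and lipogenic gene activity within a kidney cannot be told apart here.

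**Figure D4:**
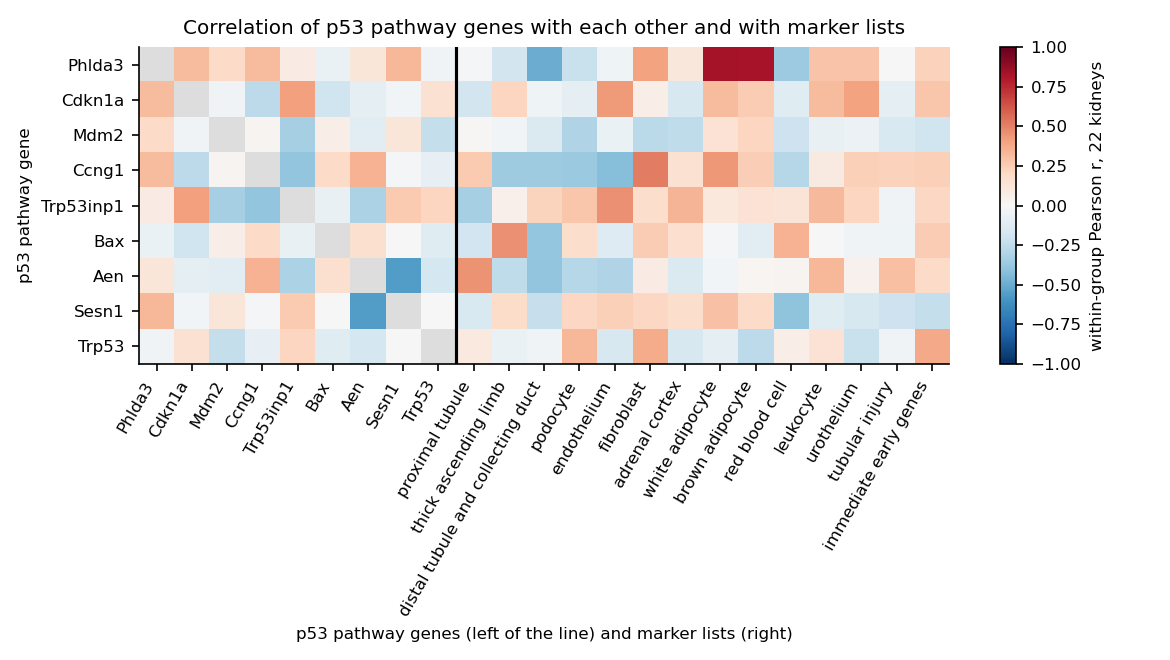
Within-group Pearson r (colour scale from −1 to 1) over 22 kidneys of each of the 9 genes (rows) with the other genes (left of the line) and with the summed CPM of 14 marker lists (right). The strongest cells are those of Phlda3 with white (0.83) and brown adipocyte markers (0.82), and the pairs among the 9 genes lie between −0.55 and 0.41.

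To see the rest of the pathway, 43 other p53 target genes were listed, of which 37 had enough counts. Against sham, edgeR called 0 of 37 at 5d and 0 of 37 at 28d. At an unadjusted p under 0.05, 8 of 37 were lower and 0 higher at 5d, where 3.97% of all tested genes were lower and 3.92% higher. At 28d 2 were higher and 2 lower, against 4.45% and 4.23% of all tested genes. DESeq2 called 1 at 5d (Btg2) and 0 at 28d, and voom 0 at both times. At 28d against sham, however, DESeq2 gave an adjusted p to only 2090 genes. Gdf15 received none there (DESeq2 log2 fold change 0.79, SE 0.20), so the 0 is no negative result for genes without one. The median log2 fold change of the 37 genes was −0.03 at 5d and −0.03 at 28d. The highest values at 5d were those of Dram1 (0.20, SE 0.18), which promotes autophagy, and Rrm2b (0.19, SE 0.11), a ribonucleotide reductase subunit. The lowest at 28d were those of the thiamine transporter gene Slc19a2 (−0.47, SE 0.16), with 6 of 6 kidneys below all sham kidneys, and of the ceramidase gene Acer2 (−0.42, SE 0.17), with edgeR adjusted p of 0.335 and 0.452. Groups did not overlap in this way for 0.258% of all tested genes. Of the targets often used as p53 readouts, Zmat3, an RNA-binding splicing regulator, had −0.24 (SE 0.10) at 5d with an edgeR adjusted p of 0.531, and Bbc3 (Puma) had −0.07 (SE 0.26) at 5d and −0.41 (SE 0.30) at 28d with edgeR adjusted p of 0.975 and 0.764. Eda2r, a further such readout, did not reach the count filter.

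Between 28d and 5d post-MI, edgeR called 2 of the 37 genes, both higher at 28d, where it called 0.415% of all tested genes (43 higher and 10 lower). DESeq2 called 4 of the 37 and voom 2. Btg2, an antiproliferative gene that is also induced as an immediate early gene, ranged from 61.6 to 151 CPM in sham kidneys (median 97.6), from 14.9 to 71.6 CPM at 5d (median 29.6) and from 67.9 to 221 CPM at 28d (median 134). Its log2 fold change between the times was 1.97 (SE 0.35), with an edgeR adjusted p of 0.00886, and 5 of 6 kidneys at 28d lay above all kidneys at 5d. Against sham it was −1.48 (SE 0.33) at 5d (edgeR adjusted p of 0.122) and 0.49 (SE 0.32) at 28d (edgeR adjusted p of 0.726).

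Gdf15, a secreted stress cytokine, ranged from 13.8 to 33.2 CPM in sham kidneys (median 18.1), from 9.03 to 24.1 CPM at 5d (median 11.3) and from 26.6 to 54.6 CPM at 28d (median 32.2). All 6 kidneys at 28d lay above all 8 kidneys at 5d, and the log2 fold change was 1.45 (SE 0.22) with an edgeR adjusted p of 0.00342. Groups did not overlap in this way for 0.344% of all tested genes. Against sham it was −0.66 (SE 0.22) at 5d and 0.79 (SE 0.21) at 28d, with edgeR adjusted p of 0.444 and 0.231.

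Plk2, a polo-like kinase named after its values were seen, had a log2 fold change of 0.89 (SE 0.22) between the times with an edgeR adjusted p of 0.0675. It was called by DESeq2, and Btg2 was not called when the 2 times were fitted without the sham kidneys (1.97, edgeR adjusted p of 0.0577).

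The immediate early genes Fos, Fosb, Jun, Junb, Egr1, Atf3, Ier2 and Nr4a1 moved in the same contrast. They summed to between 574 and 1182 CPM in sham kidneys, between 70.1 and 574 CPM at 5d and between 768 and 1956 CPM at 28d. By edgeR 7 of 8 were called higher at 28d than at 5d, against 0.336% of all tested genes. Against sham at 5d 0 of 8 were called by edgeR, where 0.0704% of all tested genes were called. However, all 8 immediate early genes were lower at an unadjusted p under 0.05 in edgeR, against 3.97% of all tested genes. DESeq2 called 7 of these genes and 0.241% of all genes. Within groups, over 16 relations chosen with earlier values known, Btg2 followed their sum with r = 0.91 (permutation p = 1e-05, the smallest possible, adjusted 0.00016) and rho = 0.91 (permutation p = 1e-05, adjusted 0.00016), and r was 0.91 without the 2 kidneys farthest from the median of Btg2. For Gdf15 r was 0.39 (permutation p = 0.102, adjusted 0.451) and rho 0.29 (permutation p = 0.206, adjusted 0.550), with r = 0.17 without the 2 farthest. The part of immediate early induction in the values of Btg2 and Gdf15 was not tested.

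**Figure D5:**
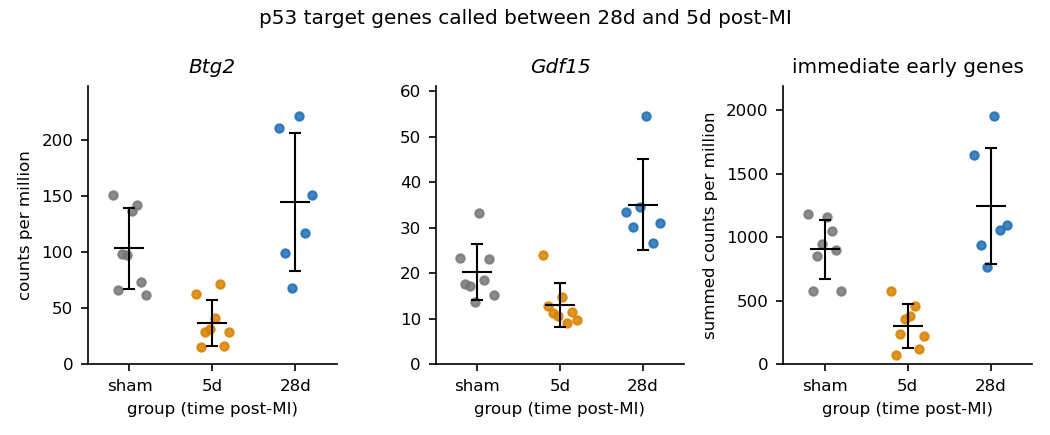
CPM (y axes, linear from 0) of Btg2 and Gdf15 and the summed CPM of 8 immediate early genes in each kidney by group, with bars for the mean ± SD. All are lowest at 5d post-MI, and Gdf15 at 28d (26.6 to 54.6 CPM) lies above every kidney at 5d.

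Of the 15 regulators and relatives of p53 that were listed, 10 were tested and 0 were called by edgeR in any contrast. Of all tested genes edgeR called 0.0704% at 5d, 0.0235% at 28d and 0.415% between the times. At an unadjusted p under 0.05, 1 was higher at 5d and 1 lower between the times, against 3.92% and 4.01% of all tested genes. DESeq2 and voom also called 0, but at 28d against sham DESeq2 gave an adjusted p to only 2090 genes. Mdm4, the partner of Mdm2 that covers the activation domain of p53, had log2 fold changes of 0.16 (SE 0.08) at 5d and −0.04 (SE 0.09) at 28d, with edgeR adjusted p of 0.624 and 0.952. Cdkn2a, whose product Arf inhibits Mdm2 and which marks senescent cells, had at most 2 counts in a kidney and was at 0 in 6 of 8 sham kidneys, 7 of 8 at 5d and 6 of 6 at 28d. A count of 0 allows up to 3 counts, so that a low level of Cdkn2a was not detectable at this depth.

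The relatives of Phlda3 were closer to the sham level at 28d. Phlda1 had log2 fold changes of −0.22 (SE 0.10) at 5d and 0.06 (SE 0.11) at 28d, with edgeR adjusted p of 0.604 and 0.925. Phlda2 had −0.21 (SE 0.10) at 5d and 0.14 (SE 0.10) at 28d, with edgeR adjusted p of 0.593 and 0.772. Whether these differ from Phlda3 was not tested. Of the AKT kinases that Phlda3 restrains, Akt1 and Akt2 had log2 fold changes between 0.04 and 0.08 at both times, none of them called. Among 10 proliferation genes only 4 reached the count filter and 0 were called by edgeR, DESeq2 or voom, also with 0 at an unadjusted p under 0.05. Of all tested genes 7.9% at 5d, 8.68% at 28d and 9.05% between the times had such an unadjusted p in edgeR.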

How the data were processed

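The authors sequenced kidney RNA by MACE, trimmed the reads with cutadapt, mapped them and counted them on genes with HTSeq. The paper's methods name the build mm10 and the submitters' processing notes mm39, so positions here are those of the GENCODE M21 (GRCm38) annotation. The deposited table holds whole-number counts without normalization. It also holds values named tpm, which are CPM made by the authors from each kidney's total (equal within 5e-06). Those values lack the TMM normalization of the CPM given here and were not used for them. Of 48 columns, 4 share a name, could not be assigned and were not used, so 22 of 24 kidneys entered. No pair of the 71 pairs of kidneys within groups was as close as 1 library counted again (chi-squared per degree of freedom 1.69 to 7.21). Depth was between 2280618 and 3786275 counts per kidney, and the limit of 3 counts for a count of 0 covers counting error only.

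Of the 56941 genes 30116 had a count and 12780 passed edgeR's filterByExpr (minimum count 10). Counts were TMM-normalized and fitted with edgeR 4.0.16 (robust quasi-likelihood F test, two-sided, 3 groups) in R 4.3.3, and p-values were adjusted by Benjamini-Hochberg over all tested genes, with a threshold of 0.05. Standard errors were obtained from the fold change and the F statistic. DESeq2 1.42.0, limma 3.58.1 (voom), RLE scaling, no filter, 2-group fits, a replicate block, and leaving out each kidney were alternatives. In simulated counts for 28d post-MI against sham (12628 genes kept), edgeR called 181 of 200 genes changed by a log2 of 1 and 9 unchanged genes. Smaller changes, such as those of the 9 genes, were not simulated. Correlations used log2 CPM (prior count 2) minus the group mean, with 100000 permutations of kidneys within groups. The scripts ran in Python 3.11.15 with scipy 1.17.1.

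The 9 genes, the gene lists and the tests were chosen with earlier results of these data known. Named genes were the 9, genes of the lists called in any contrast, the 2 highest and 2 lowest other p53 targets per contrast, Mdm4, Cdkn2a, Phlda1, Phlda2 and the 5 genes most correlated with Phlda3 within groups. Genes named outside this rule were chosen after their values were seen. Replicates are separate mice by the paper's methods. Some genes that this rule names are not reported here.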

Additional observations from a re-analysis of the deposited data

Results flagged for a closer look

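Of 60 groups of kidneys examined, 3 had a kidney that lay far from the others, where chance gives about 1 in 20. Trp53inp1 was at 28.4 CPM in sham replicate 6, 1 of the kidneys with adrenal cortex markers, above the other sham kidneys. Gdf15 was at 24.1 CPM in replicate 1 at 5d post-MI, and at 54.6 CPM in replicate 4 at 28d post-MI, each above the rest of its group.

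The change from sham differed between 5d and 28d post-MI for 2 of the genes of the lists of p53 targets, as tested by the contrast between the times. The difference was a log2 of 1.97 for Btg2 and 1.45 for Gdf15.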

How the results depend on the processing

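The 8 genes other than Phlda3 were called in 0 of 720 values under the alternatives, with a lowest adjusted p of 0.236, and 27 of these values changed sign. In the DESeq2 fit of 28d against sham only Ccng1 had an adjusted p, so the others could not be called there. The fits share most of their kidneys, so the 720 values are not independent. The signs turned under the replicate block for Cdkn1a (−0.044 at 5d, −0.020 at 28d, 0.024 between the times) and Aen (0.095 between the times), against 0.21, 0.03, −0.17 and −0.05 in the reported fit, and without the 3 kidneys with adrenal cortex signal for Trp53inp1 (0.030 at 5d) and Cdkn1a (−0.0037 at 28d). With each kidney left out in turn, Cdkn1a ran from −0.033 to 0.34 at 5d, from −0.11 to 0.19 at 28d and from −0.31 to 0.063 between the times. Trp53 ran from −0.12 to 0.0015 at 5d and from −0.039 to 0.083 at 28d, and Sesn1 from −0.015 to 0.089 at 5d. Between the times Ccng1 ran from −0.061 to 0.018 and Aen from −0.11 to 0.012. Phlda3 was lower after MI in every fit named here, and the number of the 9 genes past the threshold at 28d against sham ran from 0 to 1 with a kidney left out. That 1 is Phlda3 without sham replicate 8, and since the gene was picked on these values the count is no test of it.

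The number of genes called at 5d against sham, 28d against sham and 28d against 5d was 9, 3 and 53 by edgeR. It was 36, 30 and 91 by DESeq2, 80, 94 and 160 without a filter on low counts, and 2, 31 and 26 with only the 2 groups compared. In the voom fit it was 5 and 5 against sham, without the adrenal-signal kidneys 2 and 1, and with the white adipocyte covariate 1 and 5. With 1 kidney left out it ran from 1 to 38 (without replicate 1 at 5d), from 0 to 29 (without sham replicate 8) and from 41 to 84 (without replicate 1 at 5d). Of the other p53 targets, 1 was called at 5d without the filter (Plk2) and 1 by DESeq2 (Btg2, −1.49, adjusted p of 0.0063), and 0 to 1 with a kidney left out. Between the times 4 were called without the filter and 4 by DESeq2, 1 with only the 2 groups compared (Gdf15), and 2 to 4 with a kidney left out. Other fits called 2 or 3. The cause of these moves was not tested.

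The replicate numbers do not pair the kidneys, as 0 of 18 same-numbered pairs deviated together with r over 0.1 (−0.13 to 0.09) and 2 correlated best with their own number. With the replicate block 2, 24 and 80 genes were called. Counts of 6 to 48 per kidney and the spread among kidneys limit the precision for Cdkn1a. The fits without adrenal-signal kidneys and with the adipocyte covariate were chosen after seeing the data.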
